A study of Mus musculus with 4 samples.

Results

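The 10 genes described here belong to the intermediate filament family and were measured in NMuMG cells, a mouse mammary gland epithelial line: the keratins Krt7, Krt8, Krt14, Krt17, Krt18, Krt19 and Krt20, vimentin (Vim), nestin (Nes) and the A-type lamin gene Lmna. They were taken by gene symbol, 10 of the 16528 genes named on the arrays. They held 8 of the 23332 gene-level transcript clusters and 140 of the 229581 exon-level probesets, a probeset being the probes for an exon or a stretch of it. The TGF-beta group was NMuMG cells given recombinant human TGF-beta1 at 1 ng/ml for 24 h. The control group was NMuMG cells left untreated. Both were grown in DMEM with 4.5 g/l glucose, serum (10%), insulin (10 ug/ml), penicillin and streptomycin. Each group had 1 array at each level, so no difference below has a replicate check and no test was possible. The gene and exon levels may be summaries of the same hybridisation, so agreement between them is not a replicate check.

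Intermediate filaments are rope-like polymers that give a cell mechanical strength. Keratins form them as pairs of an acidic type I chain and a basic type II chain. The pair of Krt8 and Krt18 is the main one of simple epithelia, with Krt7, Krt19 and Krt20 added in particular ducts and linings. Vimentin is the filament of mesenchymal cells, nestin joins vimentin in stem and progenitor cells, and lamins A and C line the inside of the nucleus. A gain of vimentin and a loss of keratin filaments are widely used marks of the epithelial-mesenchymal transition, which TGF-beta can start in NMuMG cells.

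Upstream sequence is shown for 5 members whose values the results turn on. These are Krt8 and Krt18, which partner each other and both differed little between the groups. The others are Krt20 and Nes, which were higher with TGF-beta, and Vim, whose level was nearly the same in both groups. The sequences are RefSeq's on GRCm38.p6, each the 250 bases before the gene start, 5′ to 3′ on the gene's own strand. Of the 10 genes, 8 had a promoter in that table, all but Krt17 and Krt19. Capitals mark matches, on either strand, to any of 5 motifs. TATAAA is the core promoter element called the TATA box. CAGAC is the short element to which Smad proteins bind. The E-box CAGGTG is recognised by Zeb and Snail proteins. TGAGTCA is the site of the AP-1 factors, and GGGCGG the GC box of Sp-type factors. No match overlapped another.
Krt8 (chr15:102004343-102004592, minus strand): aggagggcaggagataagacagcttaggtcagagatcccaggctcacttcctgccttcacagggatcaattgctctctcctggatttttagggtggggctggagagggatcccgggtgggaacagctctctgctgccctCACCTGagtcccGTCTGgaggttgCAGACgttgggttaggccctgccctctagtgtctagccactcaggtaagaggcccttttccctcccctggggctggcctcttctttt
Krt18 (chr15:102027966-102028215, plus strand): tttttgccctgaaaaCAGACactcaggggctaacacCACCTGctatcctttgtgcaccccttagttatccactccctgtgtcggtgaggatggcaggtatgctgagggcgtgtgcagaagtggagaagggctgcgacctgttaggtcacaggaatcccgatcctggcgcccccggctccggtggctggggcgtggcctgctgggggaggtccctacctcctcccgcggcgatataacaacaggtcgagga
Krt20 (chr11:99438154-99438403, minus strand): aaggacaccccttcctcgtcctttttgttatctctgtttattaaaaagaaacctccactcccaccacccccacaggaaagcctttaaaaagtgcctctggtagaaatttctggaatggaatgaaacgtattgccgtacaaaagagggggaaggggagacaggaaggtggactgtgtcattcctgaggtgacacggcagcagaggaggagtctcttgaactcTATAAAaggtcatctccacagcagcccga
Nes (chr3:87970843-87971092, plus strand): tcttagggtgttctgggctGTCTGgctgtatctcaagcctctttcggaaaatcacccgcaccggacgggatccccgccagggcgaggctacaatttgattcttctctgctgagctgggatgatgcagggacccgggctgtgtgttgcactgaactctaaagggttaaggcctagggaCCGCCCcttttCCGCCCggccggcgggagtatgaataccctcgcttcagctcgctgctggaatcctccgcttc
Vim (chr2:13574061-13574310, plus strand): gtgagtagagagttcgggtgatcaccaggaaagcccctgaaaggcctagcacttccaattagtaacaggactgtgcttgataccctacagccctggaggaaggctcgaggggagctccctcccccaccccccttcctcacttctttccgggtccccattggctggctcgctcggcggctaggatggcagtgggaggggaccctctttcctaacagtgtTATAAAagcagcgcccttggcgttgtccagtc

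Krt8 and Krt18 each held 1 E-box match, CACCTG, at 111 to 106 and at 214 to 209 bases before the gene start. Such a match was present in 17.2% of the 32851 RefSeq promoter windows of the same length. Krt8 had 2 matches to the Smad element, Krt18 had 1 and Nes had 1, a motif found in 42.2% of windows. Krt20 and Vim each held a TATA box, 29 to 24 and 32 to 27 bases before the start, as did 12.4% of windows. Nes held 2 GC box matches, a motif in 32.7% of windows. The AP-1 letters, present in 4.46% of windows, were in none of the 5. A match is a run of letters and not a measured binding site.

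Intensities were deposited on a linear scale. Each difference is TGF-beta minus untreated of log2(intensity + 1), and a 2-fold difference is one of at least 1 in size on that scale. A feature was at level when its larger intensity reached the median of all values, 124 at gene level and 265 at exon level. Intensities of different genes are not compared, since probes differ in brightness. Across the 9159 genes at level the median difference was −0.27, so a gene with no difference stood 0.27 above the middle of the arrays. Of 10 luminal epithelial markers, 6 were at level with a median difference of −1.44. Of these, 4 (Muc1, Krt19, Elf3 and Cdh1) were at least 2-fold lower, where 8.70% of all genes at level were. The other 2, Krt18 (0.20) and Esr1 (0.22), were higher within 2-fold. Krt8 and Krt7, read at exon level only, had median differences of 0.19 and 0.09. The list shares Krt7, Krt8, Krt18 and Krt19 with the members. Epcam was below the level rule in both groups, at 62.2 with TGF-beta and 68.5 in untreated cells. Of 9 basal and myoepithelial markers, 3 were at level: Acta2 was higher (286 with TGF-beta and 77.1 in untreated cells, 1.88), Mme was lower (37.7 with TGF-beta and 125 in untreated cells, −1.70), and Krt17 lay within 2-fold. Each of these 3 reached the level rule only in the group where it was higher. That group was TGF-beta for Acta2 and Krt17, and untreated, barely, for Mme. Of 8 fibroblast markers, 3 were at level with a median difference of 0.65: Col1a1 (389 with TGF-beta and 199 in untreated cells, 0.97, or 1.24 to 1.32 in the other scalings), Col1a2 (200 with TGF-beta and 127 in untreated cells, 0.65) and Vim. The other 5, Pdgfra, Pdgfrb, Col3a1, Dcn and Lum, were below the rule in both groups, with differences above 0. Of 7 blood and endothelial markers, 1 was at level, Cd68, with 190 with TGF-beta and 317 in untreated cells (−0.73). The part of such cells in the results below was not tested. In bulk RNA, fewer cells with a transcript and less of it per cell cannot be told apart.

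Among the 10 genes, Krt19 stood far lower with TGF-beta, Krt20 and Nes stood higher by about the size rule, and Krt8, Krt18, Krt7, Vim and Lmna differed little. Krt8, Krt18 and Vim lay in the upper part of the intensity range, whose highest value was 18284 at gene level and 24667 at exon level. Whether signal this high still follows the amount of RNA was not tested, so small differences there may be understated. At gene level, 7 members were at level. Of these, 1 was at least 2-fold lower, where 8.70% of all genes at level were. None was at least 2-fold higher, where 2.28% were, and 6 lay within 2-fold. The median of the 7 differences was 0.20. Krt7 shared its gene-level cluster with another gene and Krt8 was not analysed at gene level, so both were read at exon level.

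At exon level, 98 of the 140 probesets were at level, and 9 of the 10 genes had at least 5 of them. By the median of these probesets, 2 members (Nes and Krt20) were at least 2-fold higher, where 2.35% of 8038 genes were. Of the 10 Nes probesets at level, only 3 were at level in both groups, fewer than the 5 asked for. The rest entered only through the TGF-beta group, where they were higher. By the median of the probesets at level, 1 member (Krt19) was at least 2-fold lower, where 8.14% of genes were. All probesets at level were higher with TGF-beta in 3 members (Krt8, Krt20 and Nes), where 8.62% of genes had that pattern. All were lower in Krt19, a pattern of 25.6% of genes. The other 5 members had probesets on both sides of 0, as the plot of every probeset shows.

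**Figure D1:**
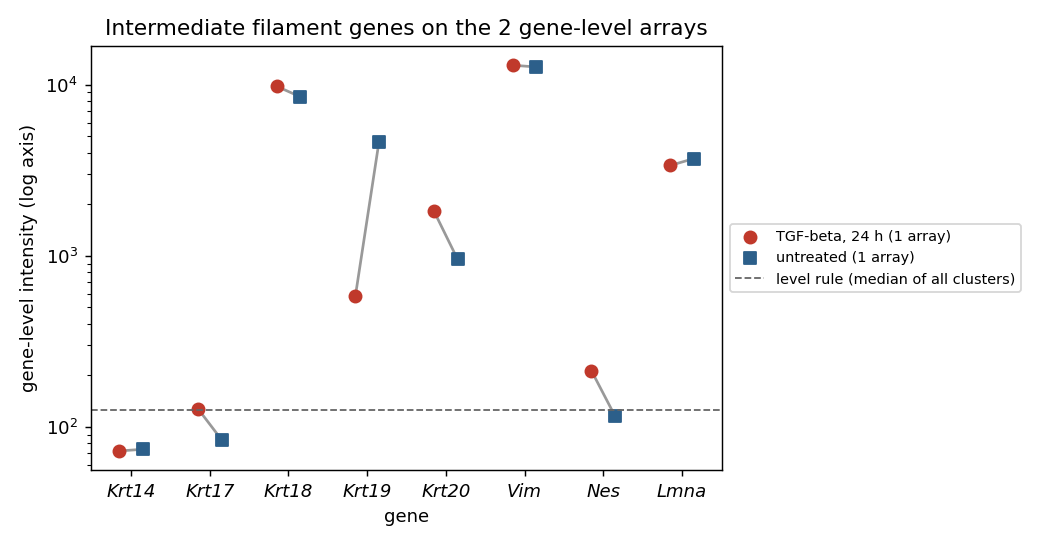
Gene-level intensity (log axis) of the 8 members with a cluster of their own, with the TGF-beta array (circle) left of the untreated array (square), 1 array each, and the level rule as a dashed line. Krt19 has the widest gap, 578 with TGF-beta against 4612 in untreated cells, while the 2 points of Vim and of Krt18 lie close together.

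Krt19, a type I keratin of simple ductal epithelia that lacks most of the tail of other keratins, had an intensity of 578 with TGF-beta and 4612 in untreated cells (transcript cluster 6791406). The log2 difference was −2.99, so the untreated intensity was 7.98 times that with TGF-beta. Counted from the lowest, it had rank 28 among the differences of the 9159 genes at level. Both arrays were above the level rule for it.

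All 8 Krt19 probesets were at level, and all were at least 2-fold lower with TGF-beta, with a median difference of −3.15 ± 0.64 (SD over probesets). That SD is a spread between parts of the transcript and not between cultures. Over the 8 probesets, intensities ran from 128 to 2483 with TGF-beta (median 342), against 717 to 12010 in untreated cells (median 4551). The ranges overlap because probesets differ in brightness, but no single probeset was higher with TGF-beta.

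The size of the Krt19 difference varied between its probesets, whose positions along the transcript were not known. Probeset 5280952 had the lowest difference, −3.83, with 308 in TGF-beta cells and 4394 in untreated cells. Probesets 5610860, 5464195 and 5516635 had 302, 366 and 317 with TGF-beta, against 4181, 4708 and 3134 in untreated cells, and differed by −3.79, −3.68 and −3.30. These 4 had the largest differences of the 8. Probeset 5318831 had 1137 with TGF-beta and 9133 in untreated cells (−3.01), and 4475829 had 1887 with TGF-beta and 12010 in untreated cells (−2.67). Probeset 5211865 had 2483 with TGF-beta and 11044 in untreated cells, and its difference of −2.15 was the one nearest to 0. It stood 1.15 above the median of the other Krt19 probesets and so departed upward from its gene by the rule of at least 1, as did 2.02% of all probesets compared. Probeset 5349013 had 128 with TGF-beta, below the level rule, and 717 in untreated cells (−2.48).

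The neighbours of Krt19 in the type I keratin cluster of chromosome 11 were below the level rule in both groups. Krt15, the neighbour on one side, had 69.1 with TGF-beta and 59.8 in untreated cells, and Krt9, on the other, had 47.4 with TGF-beta and 50.0 in untreated cells.

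**Figure D2:**
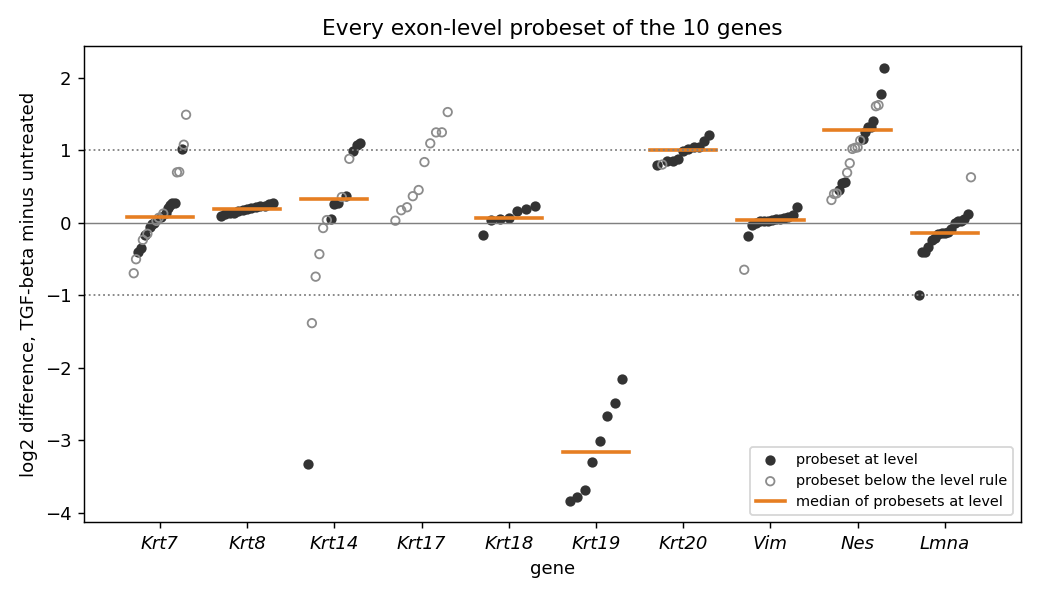
Log2 difference (TGF-beta minus untreated) of all 140 probesets of the 10 genes, filled where the probeset was at level and open where it was not, with the median of those at level as a bar and dotted lines at the 2-fold rule. The 8 Krt19 probesets lie between −3.83 and −2.15, those of Krt8 and the Vim probesets at level lie close to 0, and 1 Krt14 probeset lies at −3.33, far from the other 14.

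Krt8 and Krt18, the type II and type I chains that polymerise with each other, were direct neighbours among the protein-coding genes of chromosome 15, and both were slightly higher with TGF-beta. Krt18 (transcript cluster 6833382) had 9785 with TGF-beta and 8494 in untreated cells, a log2 difference of 0.20. Its 7 probesets, all at level, ran from 3313 to 14403 with TGF-beta, against 3186 to 14000 in untreated cells, with a median difference of 0.08 ± 0.13 (SD). Of them 6 were higher, the most 5172300 at 0.23, and 4470789 was lower at −0.16, with 4292 with TGF-beta and 4809 in untreated cells. As deposited, the exon-level Krt18 difference was thus smaller than the spread between its own probesets. With centring, quantile normalization or removal of the lowess trend, its exon-level median was 0.31, 0.12 or 0.12. In those scalings 7, 6 or 5 of the 7 probesets were higher, and the gene-level difference was 0.48, 0.17 or 0.15.

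Krt8 was read through 13 probesets, all at level, whose intensities ran from 6651 to 19020 with TGF-beta (median 13820), against 5700 to 16169 in untreated cells (median 11986). All 13 were higher with TGF-beta, by a median of 0.19 ± 0.06 (SD), the smallest SD of the 9 members with at least 5 probesets at level. The lowest difference was that of 5479722 (9210 with TGF-beta and 8639 in untreated cells, 0.09) and the highest that of 4979602 (14524 with TGF-beta and 11986 in untreated cells, 0.28). All 13 were also higher after each of the 3 other scalings of the arrays, with medians of 0.42 with centring, 0.18 with quantile normalization and 0.15 once the lowess trend of differences against level was taken out. None of the 13 reached the 2-fold rule.

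Krt7, a type II keratin of ducts and glands, had 24 probesets, of which 13 were at level. These ran from 325 to 1663 with TGF-beta (median 636), against 269 to 1567 in untreated cells (median 541), with a median difference of 0.09 ± 0.36 (SD). Of the 13, 8 were higher and 5 lower as deposited. After each of the 3 other scalings 11 of the 13 were higher, with a median of 0.32 each time. Probeset 5459307 was the highest, with 1099 with TGF-beta and 539 in untreated cells (1.02), and 4518420 the lowest, with 411 with TGF-beta and 541 in untreated cells (−0.40). The ranges of the groups overlap because probesets differ in brightness, so the overlap does not compare the groups.

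Krt20, a type I keratin of intestinal and urinary tract lining, was higher with TGF-beta by nearly 2-fold. Its intensity was 1820 with TGF-beta and 952 in untreated cells (transcript cluster 6791333), a log2 difference of 0.93 and a ratio of 1.91, just under the size rule. All 11 probesets were higher, and the 10 at level had a median of 1.01 ± 0.13 (SD), just over it. Those 10 ran from 383 to 3971 with TGF-beta (median 1706), against 211 to 1711 in untreated cells (median 887), and 5 of them reached 2-fold. The lowest difference was that of 4627638 (2038 with TGF-beta and 1166 in untreated cells, 0.81) and the highest that of 4436819 (3971 with TGF-beta and 1711 in untreated cells, 1.21).

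With the arrays centred, quantile normalized or freed of the trend, the gene-level difference of Krt20 was 1.21, 1.17 or 1.17, past the size rule each time, as the plot of scalings shows. Among its neighbours in the type I cluster, Krt12 had 110 with TGF-beta and 85.2 in untreated cells, and Krt23 had 39.9 with TGF-beta and 41.7 in untreated cells, all below the level rule.

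**Figure D3:**
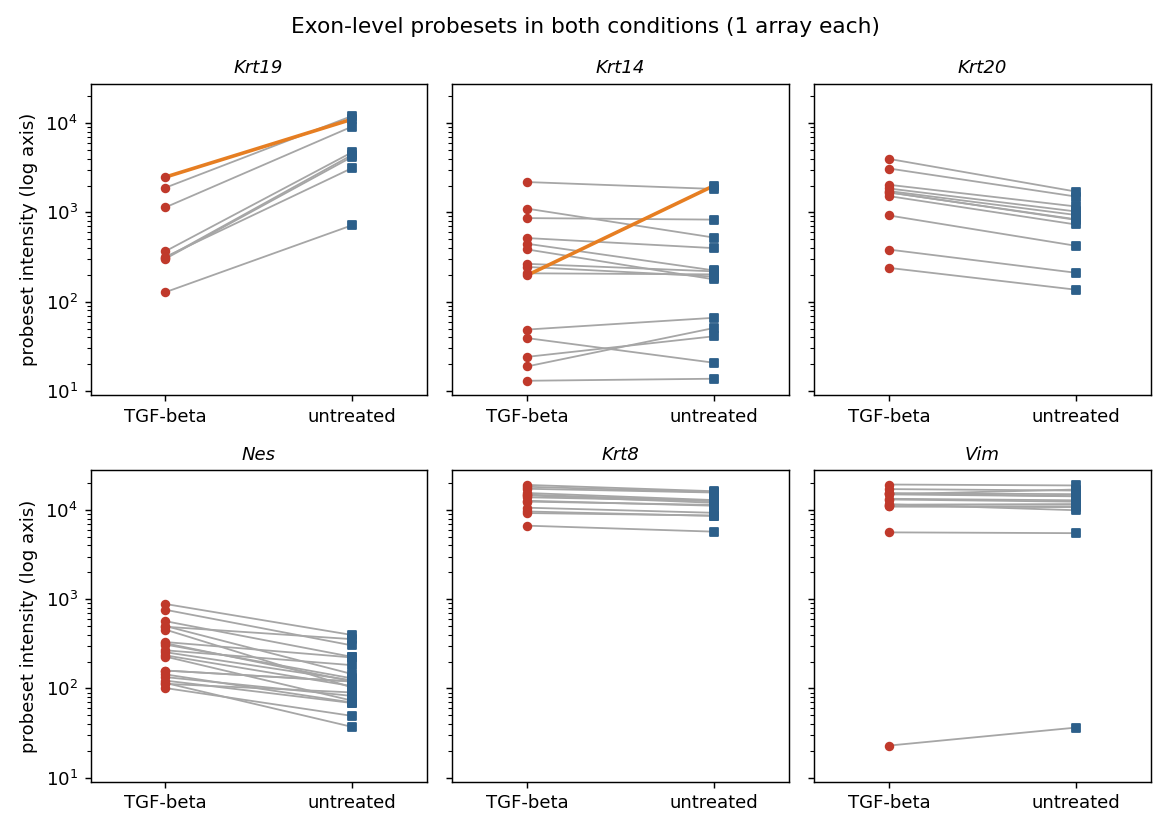
Intensity (log axis) of each probeset of 6 of the genes, with the TGF-beta array (circle) left of the untreated array (square), lines joining the 2 values of a probeset and an orange line where it departed from its gene. The Krt20 and Nes lines run down to the untreated side throughout, the Krt19 lines run up, and the orange Krt14 line, 198 with TGF-beta against 1991 in untreated cells, crosses those of the brighter probesets of its gene.

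Krt14, the type I keratin of basal and myoepithelial cells, was below the level rule at gene level in both groups, with 72.2 with TGF-beta and 73.8 in untreated cells (transcript cluster 6791408). Its probesets pointed both ways. Of 15, 8 were at level, with a median difference of 0.33 ± 1.45 (SD), the largest SD of the members. Probeset 5385727 had 198 with TGF-beta and 1991 in untreated cells, a difference of −3.33, and departed downward from its gene by 3.70, as did 1.62% of all probesets compared by at least 1. That difference lies within the range of the 8 Krt19 probesets. The other 7 at level were higher with TGF-beta. The highest was 5608670 (385 with TGF-beta and 178 in untreated cells, 1.11), next to 4763086 (1102 with TGF-beta and 523 in untreated cells, 1.07). Probesets 5608670, 5114528 and 4641193 reached the level rule only with TGF-beta, and 5385727 only in untreated cells. Over the 4 at level in both groups the median difference was 0.31. Probeset 4474889 had 2187 with TGF-beta and 1831 in untreated cells (0.26). Krt14 is closely similar in sequence to Krt16 and Krt17, and cross-hybridisation between keratin transcripts was not tested, so its direction is uncertain.

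Krt5, the type II partner of Krt14 in basal cells, was also below the level rule at gene level, with 84.0 with TGF-beta and 67.4 in untreated cells, while 7 of its 18 probesets were at level, with a median difference of 0.03 ± 1.01 (SD). Krt17, a type I keratin of basal cells and of wounded skin, had 127 with TGF-beta, barely at level, and 84.0 in untreated cells (transcript cluster 6791410), a difference of 0.60. None of its 10 probesets was at level. They ran from 9.12 to 197 with TGF-beta (median 98.8), against 7.71 to 152 in untreated cells (median 63.2), and all 10 were higher with TGF-beta, by a median of 0.65 ± 0.54 (SD). Probeset 5183051 had the highest difference, 1.53, with 167 with TGF-beta and 57.1 in untreated cells. Signal this low cannot be told from background here, since no detection value was used.

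Vimentin had an intensity of 12991 with TGF-beta and 12687 in untreated cells (transcript cluster 6875132), a log2 difference of 0.03 and a ratio of 1.02. Of its 14 probesets, 13 were at level and ran from 5596 to 19213 with TGF-beta (median 13300), against 5483 to 18767 in untreated cells (median 12795). Their median difference was 0.03 ± 0.09 (SD), with 10 higher and 3 lower. The highest was 5079839 (11534 with TGF-beta and 9907 in untreated cells, 0.22) and the lowest 5299989 (14949 with TGF-beta and 16877 in untreated cells, −0.17). The gene-level difference was 0.31 after centring and 0.13 after quantile normalization but −0.06 after removal of the trend, so its direction depended on the scaling.

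Nestin was higher with TGF-beta at both levels, and by more at exon level. At gene level it had 213 with TGF-beta and 116 in untreated cells (transcript cluster 6899039), a log2 difference of 0.88, with the untreated value below the level rule. All 21 probesets were higher, 13 of them by at least 2-fold. The 10 at level ran from 268 to 883 with TGF-beta (median 474), against 103 to 397 in untreated cells (median 202), with a median difference of 1.29 ± 0.54 (SD). The highest was 4895655 (457 with TGF-beta and 103 in untreated cells, 2.14), followed by 5115887 (501 with TGF-beta and 145 in untreated cells, 1.78), and the lowest 5320668 (491 with TGF-beta and 357 in untreated cells, 0.46). Most of the 10 at level were chosen only through the TGF-beta group, where they were higher. Over the 3 at level in both groups the median was 1.15, and over all 21 it was 1.04. After centring, quantile normalization or removal of the trend the gene-level difference was 1.15, 1.09 or 1.03, past the size rule each time.

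The neighbours of Nes on chromosome 3 were Crabp2, below the level rule at 51.3 with TGF-beta and 33.3 in untreated cells, and the proteoglycan gene Bcan, with 129 with TGF-beta and 80.0 in untreated cells. Both lay higher by less than 2-fold.

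Lmna, which encodes lamins A and C by alternative splicing, had 3369 with TGF-beta and 3693 in untreated cells (transcript cluster 6906753), a log2 difference of −0.13 that became 0.14 after centring and −0.05 after quantile normalization or removal of the trend. Of its 17 probesets, 16 were at level and ran from 466 to 7586 with TGF-beta (median 3292), against 929 to 7447 in untreated cells (median 3700). Of these 12 were lower and 4 higher, with a median of −0.13 ± 0.27 (SD). The lowest was 4307703, with 466 with TGF-beta and 929 in untreated cells (−0.99), apart from the next lowest at −0.41, and the highest was 5039122 (7295 with TGF-beta and 6720 in untreated cells, 0.12). The probesets carried no positions, so lamin A and lamin C could not be told apart.

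**Figure D4:**
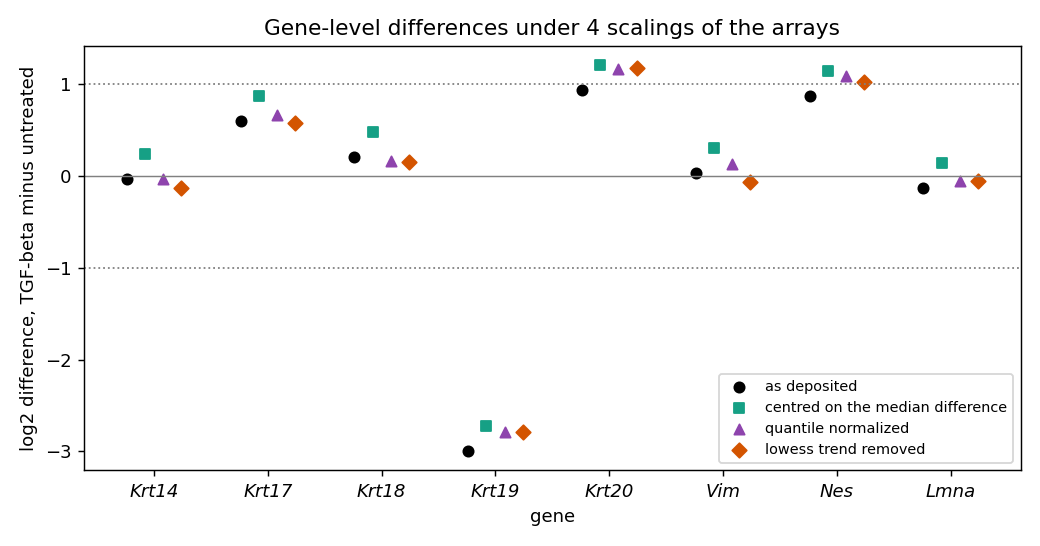
Gene-level log2 difference (TGF-beta minus untreated) of the 8 members with a cluster, as deposited and after 3 other scalings, with dotted lines at the 2-fold rule. Krt19 lies between −2.99 and −2.72 throughout, Krt20 and Nes cross the upper line in the other scalings, and Krt14, Vim and Lmna lie on both sides of 0.

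The rest of the filament family gave few values at level. Of 33 other keratins, 31 had a gene-level cluster and 3 were at level, none 2-fold different, with a median difference of 0.20. They were Krt88 (166 with TGF-beta and 113 in untreated cells, 0.56), Krt82 (0.20) and Krt10, a keratin of the upper epidermis (193 with TGF-beta and 184 in untreated cells, 0.06). Over all 31, intensities ran from 37.4 to 193 with TGF-beta (median 77.7), against 23.5 to 184 in untreated cells (median 60.2). Of 9 other type III and type IV filament genes, 3 were at level and all lay within 2-fold: Synm, which encodes synemin (0.19), Ina, which encodes internexin (−0.10, but 0.17 after centring and 0.05 after quantile normalization), and Sync, which encodes syncoilin (0.10). Desmin (Des), the filament of muscle, was below the rule at 70.8 with TGF-beta and 50.2 in untreated cells. The B-type lamin gene Lmnb2 was lower within 2-fold, with 278 with TGF-beta and 429 in untreated cells (−0.63, but −0.35 after centring and −0.21 after quantile normalization).

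Filament linkers tie these filaments to junctions and to other parts of the cytoskeleton. Of 14 such genes, 10 had a cluster and all 10 were at level, with 1 higher, 1 lower and 8 within 2-fold, where 2.28% of genes at level were higher and 8.70% lower. The list's median was 0.09, and 0.31 to 0.36 in the other scalings. Plakophilin-1 (Pkp1), which anchors keratins at desmosomes, had 1861 with TGF-beta and 475 in untreated cells (1.97), and its 15 probesets had a median of 1.94 ± 0.41 (SD). Periplakin (Ppl), a plakin that binds keratin filaments, had 212 with TGF-beta and 1549 in untreated cells (−2.86). Dystonin (Dst) differed by 0.36 and the keratin-binding Fbf1 by −0.35, the second turning to 0.06 after quantile normalization and 0.05 without the lowess trend.

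Of 15 nuclear envelope partners of lamins, 13 were at level, with none higher, 1 lower (8.70% of genes at level were) and 12 within 2-fold and a median of −0.16, which became 0.11 to 0.15 in the other scalings. The lamin B receptor Lbr had 953 with TGF-beta and 2024 in untreated cells (−1.09), a size that was −0.81 after centring and so within 2-fold. Tmpo, a lamin-binding protein, differed by −0.66, the nesprin Syne2 by −0.56 and Zmpste24, the protease that matures prelamin A, by −0.50. After centring these were −0.39, −0.28 and −0.23. Of 17 filament modifiers, 10 were at level, with none higher, 1 lower and 9 within 2-fold, beside the same 8.70% lower. The list's median was −0.34, but −0.06 after centring and −0.23 after quantile normalization. The lower one was Padi2, a deiminase whose substrates include vimentin, with 476 with TGF-beta and 1437 in untreated cells (−1.59). The kinases Aurkb (−0.72), Plk1 (−0.59) and Rock1 (−0.52), which phosphorylate vimentin, lay within 2-fold, and were at −0.45, −0.31 and −0.24 after centring.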

How the data were processed

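Total RNA of NMuMG cells was labelled with biotin and hybridised to Affymetrix exon arrays, as the labels' protocols state. The intensity values were deposited by the authors on a linear scale, already summarised per transcript cluster or probeset. For their background correction, normalization, software and build, the steps are not given in the sources used. Because 1 array stands for each group at each level, their number limits the precision, and the levels were never treated as replicates. Values were transformed as log2(intensity + 1) in Python 3.11.15 with pandas 2.3.3 and numpy 2.4.6.

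Symbols came from the platform annotation and were brought up to date with RefSeq gene names of GRCm38.p6, used for names and gene order. A feature with several symbols, or with none, stayed unnamed. For a symbol with several clusters, that with the highest mean was used. The median and SD of a gene's probesets used those at level. A probeset departed when it differed by at least 1 from the median of the other probesets of its gene, in genes with at least 5 at level.

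The members and lists were chosen with earlier results of these data known. All 10 members were named, with each member's highest and lowest probeset and the departing ones, and up to 4 genes of each list with the largest differences. The planned naming of genes of nearest intensity is left out, because intensities of different probes are not comparable. Krt5, Des, Epcam, the fibroblast markers below level and gene neighbours were named after their values were seen, as were further probesets. Alternatives were other pseudocounts, scalings, level rules and size rules (lowess with statsmodels 0.14.6, span 0.3). The calculation was tested on simulated data.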

Additional observations from a re-analysis of the deposited data

How the results depend on the processing

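No paired analysis was possible because each group held 1 array. Krt19 was past the size rule, and lower, under every alternative run: from −3.00 to −2.72 at gene level over 6 alternatives and from −3.30 to −2.92 at exon level over 8. Of these, the median over clusters and the use of all probesets could not change its value. Krt19 had 1 cluster, and all 8 of its probesets were at level. Members at least 2-fold higher at gene level numbered 0 as deposited and 2 (Krt20 and Nes) after centring, quantile normalization or removal of the trend, and also 2 with a size rule of 0.6. The share of all genes at level that were higher was 2.28% as deposited, 4.07%, 3.70% and 3.61% under those scalings and 5.90% at the rule of 0.6. Krt20 was 1.21, 1.17 and 1.17 under those 3 scalings at gene level and 1.24, 1.18 and 1.19 at exon level. Without the level rule, 0 of 8 members were higher and 1 lower, where 1.85% and 5.81% of all genes were. At the 75th percentile, or with both intensities at level, only 5 members were compared, and Nes and Krt17 were not among them. Of the 5, 0 were higher and 1 lower in each setting. The shares of all genes compared were 2.42% higher and 7.40% lower at the 75th percentile. With both intensities at level they were 1.89% and 7.15%. The cause of the shift between scalings was not tested, though each of the 3 raises the median difference of genes at level by about 0.26 to 0.27. Departing member probesets numbered 2 as deposited, 1 with both intensities at level (where the Krt14 probeset was no longer compared), 5 against the gene-level difference and 16 at a departure of 0.6. Of all probesets compared, 3.64%, 1.44%, 3.36% and 11.9% departed in those settings. After quantile normalization or removal of the trend there were 2, with Krt7 probeset 5459307 in place of Krt19 probeset 5211865. For the members other than Krt19, Krt20 and Nes, 70 of 78 values moved by less than the SD of their probesets and 8 by more, all 8 under a change of scaling. Some of the 70 could not move. No member had more than 1 cluster, and all Krt8 and Krt18 probesets were at level in both groups. The Krt14 yardstick, an SD of 1.45, includes the −3.33 of probeset 5385727. The count of 70 is therefore no measure of robustness. Signal near the level rule, as for Krt14, Krt17 and untreated Nes, limits the sizes given, and with 1 array a group no error between cultures is known.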
